A study of Mus musculus with 2 samples.

Results

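The 44 genes described here are the collagen chains of the mouse: genes whose symbol reads Col, a type number, a and a chain number, with at least 1 protein-coding transcript in the deposited table. They are 44 of 45578 genes and hold 207 of 109463 transcripts, of which 102 are protein coding. By type number, 11 are fibrillar (types I, II, III, V, XI, XXIV and XXVII), 6 are the type IV chains of basement membranes, and 27 belong to other types. The rule uses names and transcript types and no measured value, but members were chosen with earlier results of these data known.

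Collagens are secreted proteins in which 3 chains wind into a triple helix. Fibrillar types assemble into cross-linked fibrils that give tissue its tensile strength, and type IV forms a sheet-like network in basement membranes. In the brain, fibrillar collagens are known mainly from the meninges and the walls of larger vessels, where fibroblasts make them. Type IV collagen surrounds endothelial cells and pericytes and underlies the pial surface, while the neural tissue between vessels holds little fibrillar collagen. Several transmembrane and fibril-associated types are made by neurons.

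Ribosome footprints, the short RNA pieces that a ribosome shields from nuclease, were sequenced from polysomes of control mouse brains at postnatal day 5. Both samples were biological replicates of 1 group (n = 2), with the genotype Smn+/-; SMN2tg/0 on the FVB background, so these controls carry a disrupted Smn allele and a human SMN2 transgene. Replicate 1 held 1866831 footprints and replicate 2 held 5261878, which is 2.82 times as many. A whole brain mixes all its cell types, so fewer cells of a type and fewer footprints per cell cannot be told apart. With no second group there was no contrast of conditions, and differences given below are between these 2 libraries.

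Collagen genes took 2608 footprints in replicate 1 and 6863 in replicate 2, or 0.140% and 0.130% of each library. The mean share was 0.135% ± 0.0066 (SD, n = 2). Levels of single genes are given as CPM, the count divided by the library total and multiplied by 1000000. All 44 genes had at least 1 footprint in replicate 2 and 41 did in replicate 1. At least 10 footprints were counted for 26 genes in replicate 1 and 31 in replicate 2. Thinned to the depth of replicate 1, replicate 2 would be expected to show 41.3 genes with a footprint and 29.0 with at least 10 footprints. The first of these is the number found in replicate 1 to within 1 gene, and the second is 3 genes above it.

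Output was concentrated in few genes. The 5 genes with the most footprints held 56.9% ± 3.39 of all collagen footprints, and the first 10 held 76.7% ± 2.64 (SD, n = 2). The fibrillar group alone held 51.9% of collagen footprints in the first replicate (95% exact interval 50.0 to 53.9, by Clopper-Pearson) and 48.6% in the other (47.4 to 49.8). The type IV group held 12.7% and 12.4%, and the other types 35.4% and 38.9%. As shares of whole libraries these groups came to 0.0680% ± 0.0064, 0.0170% ± 0.0011 and 0.0501% ± 0.0009 (SD, n = 2). The order of the groups was the same in both libraries.

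**Figure D1:**
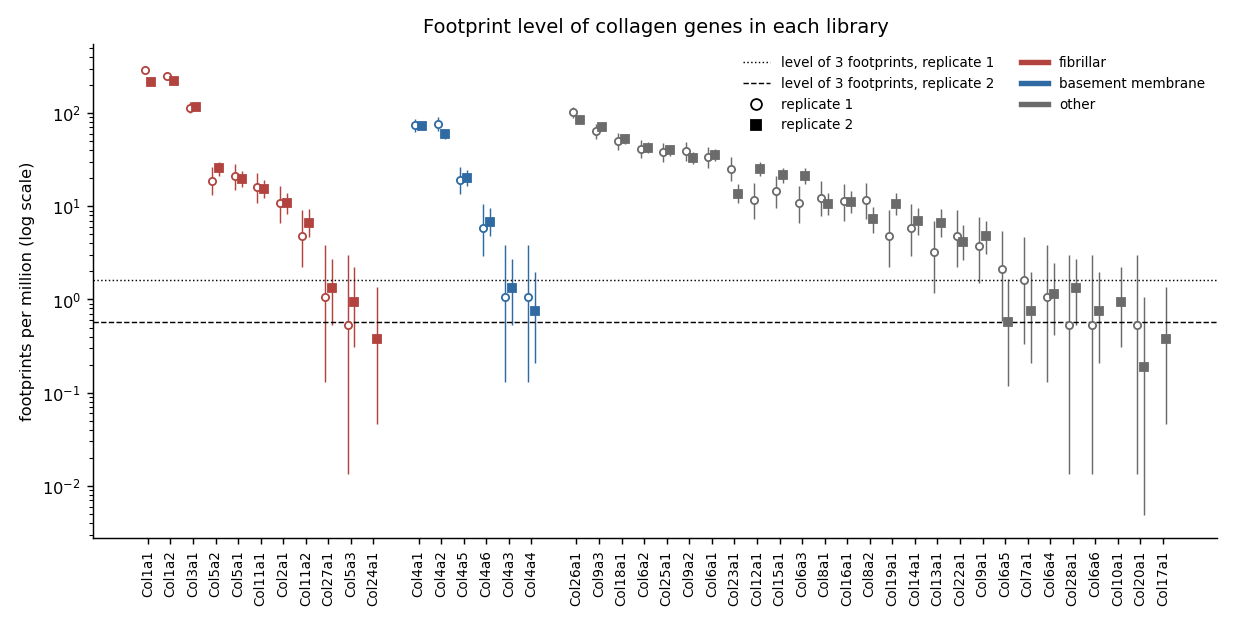
Footprint levels of the 44 collagen genes in CPM on a log axis, grouped by class, with 1 point per replicate, 95% counting intervals and lines at the level of 3 footprints. Values of 0 are not drawn. Col1a1 and Col1a2 lie highest, with means of 254 and 234 CPM, and Col9a1 lies near 4.25.

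The chains of type I collagen, the main fibrillar collagen of connective tissue, had the highest counts of the family. Col1a1, which encodes the alpha-1 chain, had 543 footprints in replicate 1 and 1138 in replicate 2. That is 291 CPM (95% interval 267 to 316) and 216 CPM (204 to 229), with a mean of 254 ± 52.7 (SD, n = 2). Col1a2, which encodes the alpha-2 chain, had 461 and 1164 footprints, or 247 CPM (225 to 271) and 221 CPM (209 to 234), with a mean of 234 ± 18.2. Replicate 1 was the higher library for both chains, and the 2 intervals of Col1a1 did not overlap while those of Col1a2 did. Type I chains together made up 38.5% of collagen footprints in replicate 1 and 33.5% in replicate 2.

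Type III collagen forms thin fibrils with type I in vessel walls and meninges, and is a known ligand of the receptor Adgrg1 in the developing cortex. Its single chain, Col3a1, had 214 and 611 footprints, or 115 CPM (99.8 to 131) and 116 CPM (107 to 126), a mean of 115 ± 1.05. The libraries were close to equal for this gene. Per codon, Col3a1 stood at 0.391 of Col1a1 in replicate 1 (0.332 to 0.459) and 0.533 in replicate 2 (0.482 to 0.588). Those intervals do not overlap.

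Type V collagen is known to start and limit the growth of type I fibrils. Col5a2 had 35 and 134 footprints and Col5a1 had 39 and 104, so both chains lay far below type I. Type XI and type II chains, best known from cartilage, were lower again. Col11a1 had 30 and 81 footprints, Col2a1 had 20 and 57, and Col11a2 had 9 and 35. The remaining fibrillar genes reached at most 7 footprints (Col27a1), 5 (Col5a3) and 2 (Col24a1) in a library.

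The type IV group was led by its widespread pair of chains, Col4a1 and Col4a2, which build the basement membrane around brain vessels. Both genes lie head to head on chromosome 8 and are known for a shared promoter. In RefSeq (GRCm38.p6) their annotated starts are 21 nucleotides apart, at 11312826 on the minus strand and 11312805 on the plus strand. The segment chr8:11312801-11312830 is shown on both strands because it is where transcription of the 2 chains is annotated to begin, in opposite directions. Capitals mark the 22 bases from one annotated start to the other.
Col4a1: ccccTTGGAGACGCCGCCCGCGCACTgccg
Col4a2: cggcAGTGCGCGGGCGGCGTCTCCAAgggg
Of the 44 genes, 35 matched a promoter window in the RefSeq table, which runs from 250 bases before to 50 after each start. The Col4a1 and Col4a2 windows share 78 bases. Col4a5 and Col4a6 are also neighbours, on the X chromosome, with starts 1343 nucleotides apart and no shared bases in these windows.

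Col4a1 had 138 footprints in replicate 1 and 386 in replicate 2, or 73.9 CPM (62.1 to 87.3) and 73.4 CPM (66.2 to 81.1), a mean of 73.6 ± 0.40 (SD, n = 2). Col4a2 had 142 and 314 footprints, or 76.1 CPM (64.1 to 89.6) and 59.7 CPM (53.3 to 66.7), a mean of 67.9 ± 11.6. The libraries were nearly level for Col4a1, while Col4a2 was higher in replicate 1. Col4a5, whose chain is known from the kidney filter and from Alport syndrome, had 36 and 107 footprints, and its neighbour Col4a6 had 11 and 36. Per codon, Col4a5 stood at 3.27 times Col4a6 (1.63 to 7.13) in replicate 1 and 2.97 times (2.02 to 4.47) in replicate 2. The kidney chains Col4a3 and Col4a4 reached 7 and 4 footprints in their higher library.

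The first chain comparison set Col1a1 against Col1a2, whose products are usually joined as 2 alpha-1 chains and 1 alpha-2 chain. Footprints were divided by the coding length, 1454 codons for Col1a1 and 1373 for Col1a2. With all transcripts of each gene summed, the ratio of Col1a1 to Col1a2 was 1.11 in replicate 1 (95% interval 0.981 to 1.26) and 0.923 in replicate 2 (0.850 to 1.00), a mean of 1.02 ± 0.134 (SD, n = 2). Both intervals included 1 and lay below 2. With protein-coding transcripts alone the ratio was 1.59 (1.38 to 1.83) and 1.19 (1.09 to 1.31), a mean of 1.39 ± 0.281. With the top transcript of each gene it was 1.73 in replicate 1, with an interval that reached 2.01, and 1.33 (1.21 to 1.46) in replicate 2, a mean of 1.53 ± 0.284. The value thus depended on which transcripts were counted, and replicate 1 gave the higher ratio each time.

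The second comparison set Col4a1, with 1670 codons, against Col4a2, with 1708. Type IV collagen of vessels also joins 2 alpha-1 chains with 1 alpha-2 chain. The per-codon ratio was 0.994 in replicate 1 (0.781 to 1.27) and 1.26 in replicate 2 (1.08 to 1.46), a mean of 1.13 ± 0.186 (SD, n = 2). The intervals of the libraries overlapped, that of replicate 2 lay above 1, and both lay below 2. With protein-coding transcripts alone the mean ratio was 1.17 ± 0.141, and with the top transcripts 1.27 ± 0.226. The type IV ratio moved less than the type I ratio under these choices.

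**Figure D2:**
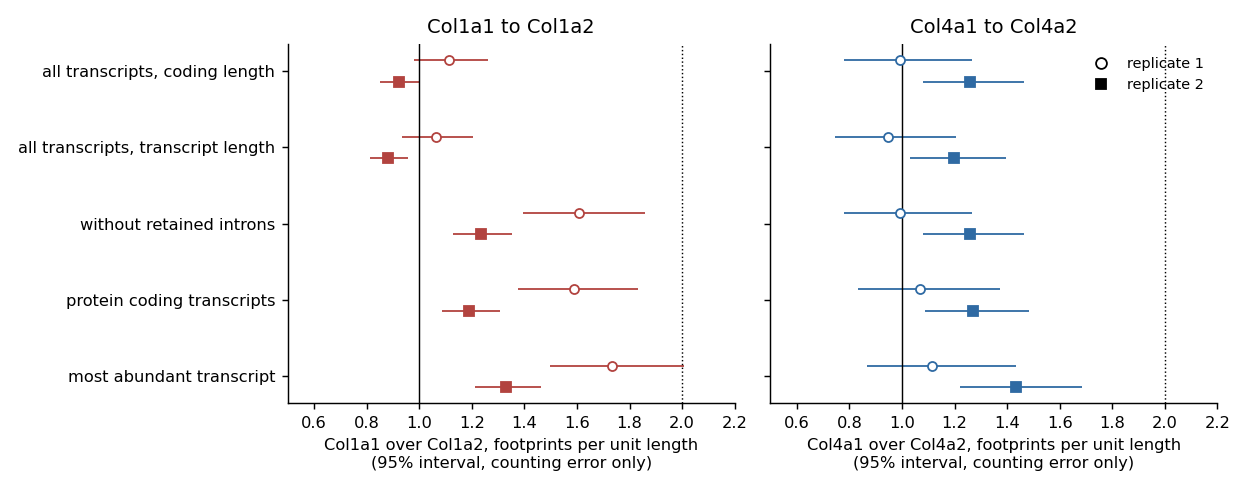
Ratio of footprints per unit length of Col1a1 to Col1a2 (left) and Col4a1 to Col4a2 (right), per replicate with 95% intervals, under each way of counting transcripts and length. The solid line marks 1 and the dotted line 2. Col1a1 to Col1a2 runs from a mean of 0.972 with transcript length to 1.53 with the top transcripts.

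Within the remaining types, chains that share a molecule were set side by side per codon. Type VI collagen forms beaded microfibrils near cells. Col6a1 had 63 and 186 footprints and Col6a2 had 77 and 224, a ratio of 0.825 (0.582 to 1.17) and 0.838 (0.686 to 1.02). The third chain of the usual molecule, Col6a3, is very long and had 20 and 112 footprints. Its ratio to Col6a1 per codon was 0.099 (0.057 to 0.166) in replicate 1 and 0.188 (0.147 to 0.239) in replicate 2, so it lay far below its partners in both libraries. Type VIII collagen, a short-chain network in vessels and in the cornea, had 23 and 56 footprints for Col8a1 and 22 and 38 for Col8a2.

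Type IX collagen, a fibril-associated type best known from cartilage, was unequal among its chains. Col9a3 had 120 and 374 footprints, Col9a2 had 73 and 173, and Col9a1 had 7 and 25. Per codon, Col9a1 stood at 0.043 of Col9a3 (0.017 to 0.092) in replicate 1 and 0.049 (0.032 to 0.074) in replicate 2. Col9a2 stood at 0.601 (0.443 to 0.811) and 0.457 (0.380 to 0.549). Cartilage and bone markers were low, with a summed level of 13.4 and 16.9 CPM over 8 genes, of which Acan took 9.11 and 8.55. The other 7 summed to 4.29 and 8.36 CPM. Matn1 had 0 and 3 footprints, Comp 0 and 1 and Sp7 0 and 6. Bglap had 0 and 12 and Ibsp 1 and 10. Dmp1, with 3 and 8 footprints, and Mmp13, with 4 and 4, did not rise in CPM. In replicate 1 they took most of the sum, at 1.61 and 2.14 CPM.

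Of the other fibril-associated chains, Col12a1, from connective tissue under tension, had 22 and 132 footprints. Col16a1 had 21 and 59, Col19a1, known from interneurons, had 9 and 56, Col14a1 had 11 and 37, and Col22a1, known from muscle-tendon junctions, had 9 and 22. The multiplexins of vascular basement membranes, which carry heparan or chondroitin sulfate chains, were Col18a1, the source of endostatin, with 93 and 274 footprints, and Col15a1 with 27 and 113. Counted with type IV, they raised the basement membrane share of all footprints from 0.0170% to 0.0239%.

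The transmembrane collagens were led by Col25a1, a neuronal type found in amyloid plaques and needed for motor innervation of muscle. It had 71 and 211 footprints. Col23a1 had 47 and 72, and Col13a1, known from the neuromuscular junction, had 6 and 35. Col26a1, a short chain with an EMI domain, had 190 and 440 footprints, or 102 CPM (87.8 to 117) and 83.6 CPM (76.0 to 91.8), a mean of 92.7 ± 12.8 (SD, n = 2). It was the fourth collagen by count.

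The other members averaged under 10 footprints and were not tested between libraries. Col28a1 reached 7 footprints in its higher library, Col6a4 reached 6, Col10a1 reached 5, and Col6a5, Col6a6 and Col7a1 reached 4. Col17a1, known from skin hemidesmosomes, reached 2 and Col20a1 reached 1. Col10a1, Col17a1 and Col24a1 had no footprint in replicate 1, where 3 footprints, the limit used here for a count of 0, are 1.61 CPM and the upper end of the two-sided 95% Clopper-Pearson interval is 1.98 CPM. Together the 13 members below this level had 19 footprints in replicate 1 and 57 in replicate 2.

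Levels of different genes were compared as CPM per kilobase of coding sequence, since collagen chains are long. The 31 members that averaged 10 or more footprints had a median of 1465 codons, against 471 over 13317 coding genes with such counts. Their median level was 4.53 CPM per kilobase, against 23.5 over those genes, so most collagens were low for their length. Col26a1, with 441 codons, came first at 70.1 ± 9.70, followed by Col1a1 at 58.1 ± 12.1 and Col1a2 at 56.8 ± 4.42 (SD, n = 2). Col26a1, at 76.9 and 63.2, was above both type I chains within each library. Col1a1, at 66.7 and 49.6, was above Col1a2, at 60.0 and 53.7, in replicate 1 and below it in replicate 2. Col9a3 at 33.1 ± 2.35, Col3a1 at 26.3 ± 0.24 and Col25a1 at 19.5 ± 0.73 came next, while Col4a1 stood at 14.7 ± 0.080 and Col4a2 at 13.2 ± 2.26.

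The order at the top depended on the transcripts counted. On protein-coding transcripts alone, the level of Col1a1 was 55.1 ± 12.9 CPM per kilobase, that of Col1a2 39.6 ± 1.26 and that of Col26a1 39.2 ± 9.88. Col1a1 then came first within each library, at 64.2 and 46.1, above Col26a1 at 46.2 and 32.2 and Col1a2 at 40.4 and 38.7. Col26a1 was above Col1a2 in replicate 1 and below it in replicate 2. Col9a3 was at 21.9 on this scale, Col3a1 at 22.5 and Col25a1 at 9.58.

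**Figure D3:**
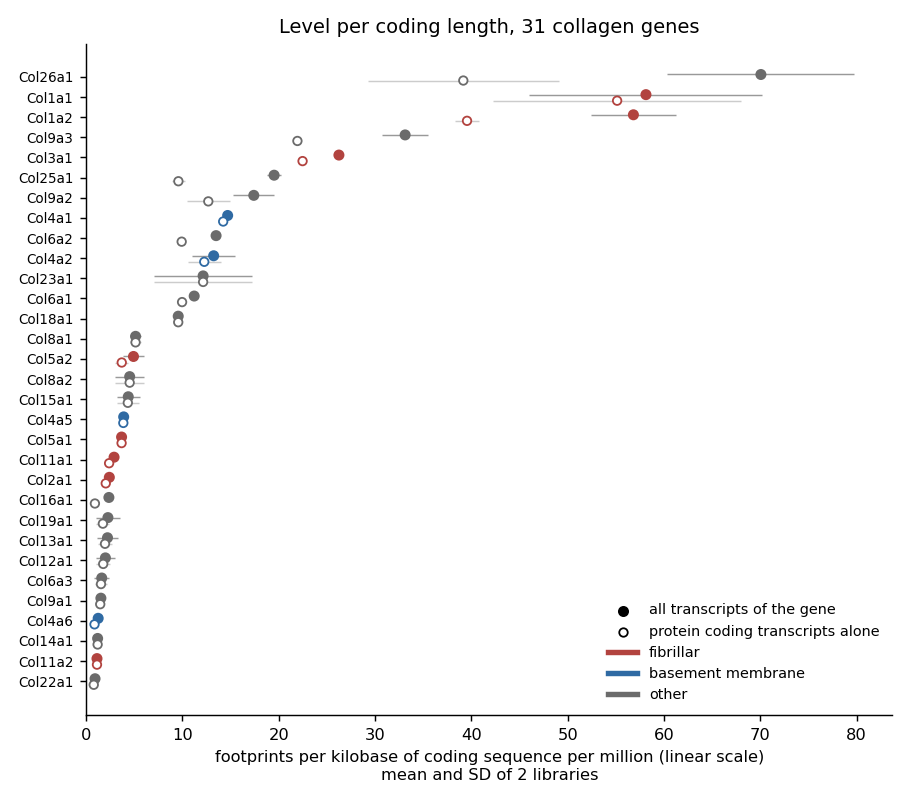
CPM per kilobase of coding sequence of 31 collagen genes on a linear axis, as the mean and SD of both replicates, with all transcripts (filled) and with protein-coding transcripts alone (open). Col26a1 moves from 70.1 to 39.2, while Col1a1 moves from 58.1 to 55.1.

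Annotated retained-intron transcripts held a larger share of pooled collagen footprints than of all footprints. Retained-intron transcripts held 13.8% of collagen footprints in replicate 1 and 14.8% in replicate 2, a mean of 14.3% ± 0.676, against 9.36% ± 0.387 over all genes (SD, n = 2). Protein-coding transcripts held 81.9% ± 1.36 of collagen footprints and 75.5% ± 1.09 of all footprints. Both shares were above those of all footprints, a set that also holds noncoding genes. The pooled retained-intron share was not a trait of each collagen. It was 32.5% and 28.01% for Col1a2 and 36.3% and 43.9% for Col26a1, in replicates 1 and 2. For Col1a1 it was 2.39% and 3.78%, and for Col4a1, Col4a2 and Col18a1 it was 0% in both. Whether the excess remains without Col1a2 and Col26a1 was not tested. Retained-intron transcripts share exons with the coding ones, so a footprint in a shared exon can be placed on either.

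Genes differed widely in this respect. Of the footprints of Col1a1, 94.6% ± 2.43 were on its protein-coding transcript, against 69.7% ± 3.20 for Col1a2 (SD, n = 2). Col1a2 had 285 and 750 footprints on its full-length transcript Col1a2-001, and 55 and 104 on the retained-intron transcript Col1a2-004. Col4a1 was at 96.8%, Col4a2 at 92.9% and Col18a1 at 100%, while Col26a1 was at 55.5% ± 6.43, Col25a1 at 49.1% and Col16a1 at 38.7%. For Col25a1, the transcript with the most footprints in replicate 2 was Col25a1-004, annotated for nonsense-mediated decay, with 16 and 58. Its lead was small, as the coding transcripts Col25a1-002 and Col25a1-001 had 15 and 56, and 19 and 50. In replicate 1 Col25a1-001 was above it. Over 20 collagens that averaged 50 or more footprints the median coding share was 90.2%, against 88.6% over 10026 genes with such counts.

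**Figure D4:**
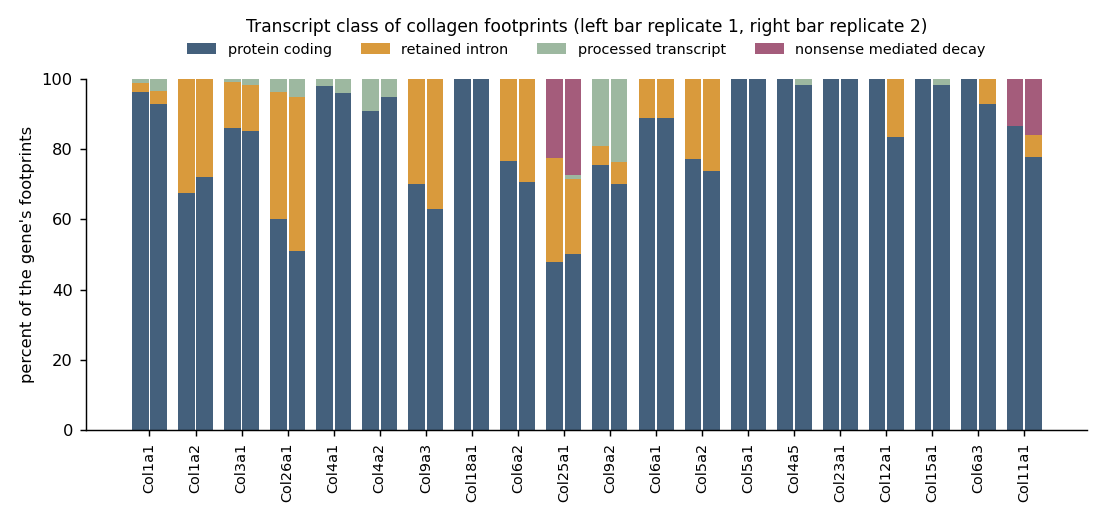
Share of each gene's footprints by annotated transcript type, in percent, for the 20 collagens with the most footprints, with replicate 1 as the left bar and replicate 2 as the right. Col18a1 and Col4a1 are almost wholly protein coding, while Col26a1 and Col25a1 have large parts on other transcript types.

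The replicates were compared to see how far collagen levels vary between brains of 1 group. Counts were tested with an exact two-sided binomial test against scaled library sizes, adjusted by Benjamini-Hochberg over the 16427 genes that averaged 10 or more footprints. This test treats each footprint as an independent count and covers counting error alone. Fragments counted on several transcripts, or PCR copies left in, would break this, and the handling of both is not known. A called gene thus differed between the libraries by more than independent counting allows. Of 31 collagens tested, 6 were called (19.4%), where 17.4% of all genes were. Called and higher in replicate 2 was 1 collagen, against 5.95% of all genes, and called and lower were 5, against 11.5%. With library totals in place of scaled sizes the table's calls turned from 34.2% to 60.7% higher in replicate 2. The collagen share called was close to the background, and the median log2 ratio of replicate 2 over replicate 1 was -0.08 over collagens and 0.01 over all genes.

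Col1a1 was lower in replicate 2 by a log2 ratio of -0.55 (95% interval -0.70 to -0.40; exact binomial test, adjusted p = 4.4e-11). Col23a1 was lower by -0.98 (-1.56 to -0.44; adjusted p = 0.0039), the largest in size of those called. Both calls held under each scaling, filter and transcript choice of the binomial test. Col1a2 was lower by -0.28 (-0.44 to -0.13; adjusted p = 0.0041), Col4a2 by -0.47 (-0.77 to -0.18; adjusted p = 0.011) and Col26a1 by -0.41 (-0.66 to -0.16; adjusted p = 0.012). Col12a1 was higher by 0.94 (0.31 to 1.69; adjusted p = 0.019). Col3a1, at -0.11 (adjusted p = 0.62), and Col4a1, at -0.14 (adjusted p = 0.60), were not called.

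The calls of Col1a2, Col4a2, Col26a1 and Col12a1 depended on the processing. With library totals, 4 collagens were called, 2 higher and 2 lower, and Col1a2 (adjusted p = 0.16), Col4a2 (0.084) and Col26a1 (0.11) were lost. On protein-coding transcripts alone, Col1a2 (0.27), Col4a2 (0.068) and Col12a1 (0.11) were lost. With the binomial test, 9 collagens had an unadjusted p under 0.05. The collagen calls, those of Col1a1 and Col23a1 included, did not hold with edgeR's exact test and a common dispersion. That dispersion was estimated from the same libraries that the test compared, so their differences set the spread they were tested against. Such a test leaves few calls by its design. A loss under it, here or below, therefore does not decide whether the libraries differ.

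**Figure D5:**
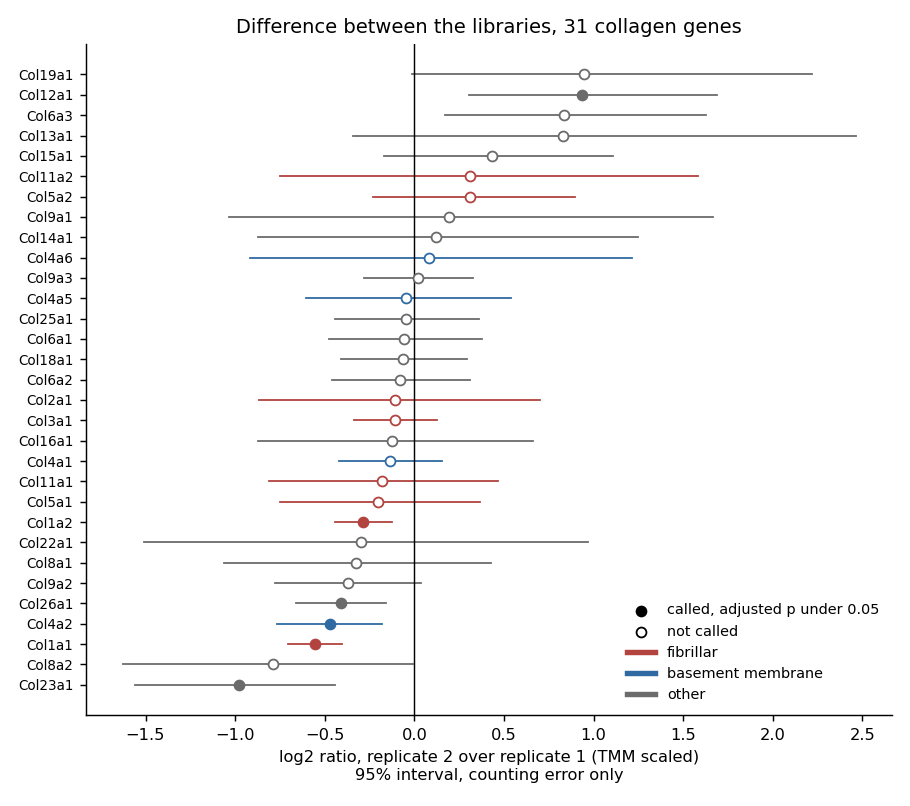
Log2 ratio of replicate 2 over replicate 1 for the tested collagens, with 95% intervals that cover counting error. Filled points are called. Col1a1 lies at -0.55 and Col23a1 at -0.98, while Col12a1 lies at 0.94.

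Markers of tissue outside the brain were read beside the collagens with the highest ratios. Besides Col12a1, Col19a1 had a log2 ratio of 0.95 (adjusted p = 0.16) and Col6a3 of 0.84 (adjusted p = 0.060), and neither passed the test. Col6a3 was called higher with library totals (adjusted p = 0.020) and among genes that averaged 50 or more footprints (adjusted p = 0.044). The 5 muscle markers summed to 78.7 CPM in replicate 1 and 62.3 in replicate 2. Most of that sum was Acta1, at 75.0 and 50.2 CPM, which was called lower (log2 ratio -0.70). The other 4 summed to 3.75 and 12.2 CPM; of these the myosins Myh3, with 1 and 20 footprints, and Myh8, with 2 and 30, were tested and not called, while library totals gave 1 muscle marker called higher. The 3 skin markers summed to 10.7 and 10.6 CPM. The part of such cells in the collagen ratios was not tested.

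Markers of cells that make collagen were present in both libraries. The 9 genes listed for meningeal and perivascular fibroblasts summed to 719 and 744 CPM. Igf2 took 394 and 343 CPM of this, and the other 8 summed to 325 and 400 CPM, of which Pdgfra took 165 and 178. Sums of marker lists are levels of the listed genes in whole brain, and how much came from the named cells was not tested. Dcn and Slc6a20a were called higher in replicate 2 and Igf2 lower, and 0 of 9 were called with top transcripts. Dcn, Lum and Ogn are on the list of fibril partners too. Endothelial markers summed to 316 and 297 CPM. Cldn5, at 144 and 83.1 CPM, was the only 1 of 7 called, and lower, while the other 6 summed to 172 and 214 CPM; library totals gave 3 calls, 2 of them higher. Mural cell markers summed to 298 and 251 CPM, with 4 of 7 called lower, where 11.5% of all genes were, but 1 with library totals and 1 with top transcripts. Of the 5 choroid plexus markers, Ttr alone was called, lower at 582 and 277 CPM, and the other 4 summed to 52.5 and 60.8 CPM. Neuronal markers summed to 3339 and 2209 CPM, with 4 of 4 called lower, where 11.5% of all genes were. The call of Syt1 was lost, and 3 of 4 were called lower, in each of 3 other settings. These were library totals, top transcripts and an expected ratio taken from genes of like footprint density. With edgeR's exact test 0 genes of these lists were called. Their part in the collagen ratios was not tested.

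Collagen chains are hydroxylated and glycosylated in the endoplasmic reticulum before they fold. Of 14 such enzymes, 13 were tested and 1 was called, where 17.4% of all genes were. That enzyme was P4hb, the beta subunit of prolyl 4-hydroxylase, with 483 and 1091 footprints, lower in replicate 2 by a log2 ratio of -0.44. It also had the highest level of the list at 152 CPM per kilobase, ahead of the lysyl hydroxylase Plod1 at 31.5. The median log2 ratio of the list was -0.17, and with library totals 1 further member was called, higher.

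Folding and export proteins had the highest summed level of the 7 pathway lists, at 1289 and 1194 CPM. Sparc alone took 622 and 506 CPM of this, and the other 10 summed to 667 and 688 CPM. That is below the sum of the basement membrane partners with their leading gene Agrn counted, 862 and 925 CPM, so the rank rested on Sparc. Of 11 tested, 3 were called, all lower in replicate 2, where 17.4% of all genes were called and 11.5% called lower: Sparc, a collagen-binding secreted protein, at a log2 ratio of -0.42, Ppib, a prolyl isomerase, at -0.48, and Tmem38b, an ion channel of the endoplasmic reticulum, at -0.81. Sparc stood at 620 and Ppib at 176 CPM per kilobase, above each collagen. The list's median log2 ratio was 0.09, and 1 member was called higher with library totals and 1 with an expected ratio taken from genes of like footprint density. The alias Ctage5, under which the table lists Mia2, had 51 and 189 footprints.

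Of 14 genes that cut propeptides or cross-link chains, 11 were tested and 0 were called by the binomial test, where 17.4% of all genes were. An unadjusted p under 0.05 was found for 4, where 27.7% of all genes had one. With edgeR's exact test 0 were called and 0 were at that level. Calls did appear in other settings of the binomial test: 3 lower with the density-based ratio, 1 higher with library totals, 1 higher on protein-coding transcripts and 1 lower among genes averaging 50 or more footprints. In these settings 16.4% to 26.8% of all genes were called. Pcolce, an enhancer of propeptide cleavage, had the highest level at 24.8 CPM per kilobase, followed by the protease Bmp1 at 15.9. The cross-linking oxidase Lox had 34 and 92 footprints, and the list's median log2 ratio was -0.18.

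Among 10 fibril partners, 1 was called, where 17.4% of all genes were. It was Dcn, a proteoglycan that coats fibrils, with 82 and 387 footprints. Dcn was higher in replicate 2 by a log2 ratio of 0.61 (exact binomial test, adjusted p = 0.0034). The mean levels of Bgn, at 62.0 ± 5.78, and Dcn, at 55.2 ± 19.7 CPM per kilobase (SD, n = 2), were close to those of the type I chains. For Dcn this held for the mean alone, since its level was 43.9 CPM in replicate 1 and 73.5 CPM in replicate 2. Of 12 basement membrane partners, 1 was called, also beside 17.4% of all genes. This was the laminin chain Lamb1, with 95 and 408 footprints, higher in replicate 2 by 0.48. The median log2 ratios of these lists were 0.28 and -0.02. Agrn, a heparan sulfate proteoglycan, stood at 67.3 and Nid1, which links laminin to type IV collagen, at 25.9.

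Of 10 collagen receptors, 8 were tested and 1 was called: Adgrg1, the receptor for type III collagen, lower in replicate 2 by -0.31 with 544 and 1350 footprints. With library totals 2 receptors were called instead, both higher. Adgrg1 stood at 133 CPM per kilobase and the integrin subunit Itgb1 at 65.4. Of 8 genes of collagen turnover, 7 were tested and 3 were called, all lower in replicate 2, against 11.5% of all genes called lower: the inhibitors Timp2, at a log2 ratio of -0.63, and Timp3, at -0.55, and the membrane protease Mmp14, at -0.39. The levels of Timp2 and Timp3 were 360 and 142 CPM per kilobase. The median log2 ratios of these lists were 0.17 and -0.38. No gene of these 7 lists was without a footprint. Each call in them was lost with edgeR's exact test, and that of Adgrg1 also with library totals, top transcripts and an expected ratio taken from genes of like footprint density. That of Mmp14 was lost with library totals, those of Sparc and Ppib with that expected ratio, and those of Dcn and Lamb1 with top transcripts.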

How the data were processed

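Ribosome footprints from polysomes of 2 control brains were analysed. The authors deposited 1 table of raw counts per transcript, with no normalization and with annotated transcript, coding and untranslated lengths. Per the submitters' processing notes, Trimmomatic 0.36, Bowtie2 2.2.6, SAMtools and build GRCm38.p4 were used; how fragments matching several transcripts or genes were counted, and whether PCR copies were removed, is not given in the sources used here.

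Counts were summed per gene. CPM used library totals; levels per kilobase used the longest coding sequence of a protein-coding transcript. Log2 ratios used TMM sizes (edgeR 4.0.16) and a prior of 0.5 CPM, and genes averaging 10 or more footprints were tested at an adjusted p of 0.05. A quasi-likelihood fit has no contrast in 1 group. Intervals are 95% Clopper-Pearson; they and the floor of 3 counts cover counting error only. DESeq2 1.42.0 size factors were an alternative. The binomial test and the interval of a ratio were tried on simulated counts that held counting error alone. Neither edgeR's exact test nor the expected ratio from footprint density was tried on simulated data. The common dispersion of edgeR's exact test was estimated from the same libraries that the test compared. Python 3.11.15 with scipy 1.17.1 was used.

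All members with a mean count of at least 10 are named with both counts, the others with their highest count; each pathway list is named by its 2 highest genes per length and its called genes. Lox was named after its values were seen. Members and lists were chosen with earlier results of these data known. Promoter sequences are RefSeq's. One list of cell type markers is not reported here.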

Additional observations from a re-analysis of the deposited data

How the results depend on the processing

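Shares moved with the transcripts counted. On protein-coding transcripts alone, collagens held 0.147% of footprints, fibrillar types 0.0752% and type IV 0.0212%; with the top transcript of each gene these were 0.174%, 0.101% and 0.0282%, and other types 0.0449%. With types XV and XVIII moved, basement membrane types held 0.0239% and other types 0.0432%. The Col1a1 to Col1a2 ratio was 1.39 on protein-coding transcripts, 1.53 with top transcripts for the counts or for counts and length, and 1.42 without retained-intron transcripts, a choice made after seeing the data. The number of collagens called was 3 on protein-coding transcripts, 3 with top transcripts and 0 with edgeR's exact test, against 6; the other settings gave 4 to 7. The median log2 ratio was 0.045 with library totals, -0.18 with top transcripts and -0.15 with expected ratios from strata of footprint density, and Col3a1 turned to 0.018 with library totals, under which each log2 ratio is 0.13 higher. The cause was not tested. Left to 1 replicate, the collagen share ranged from 0.130% to 0.140%, the fibrillar share from 0.0634% to 0.0725%, type IV from 0.0162% to 0.0177%, other types from 0.0494% to 0.0508%, the type I ratio from 0.923 to 1.11 and the type IV ratio from 0.994 to 1.26. No paired analysis was possible because both samples belong to 1 group. Col12a1 was also lost with top transcripts (adjusted p = 0.68) and density strata (0.056), Col1a2 (0.44) and Col26a1 (0.054) with top transcripts. Counts under 10 footprints limit the 13 lowest genes.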

Other observations

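Several collagens spread their footprints over more than 1 full-length coding transcript. Col18a1 had 31 and 90 footprints on Col18a1-001, 27 and 79 on Col18a1-003 and 31 and 79 on a further, longest transcript, whose coding sequences are 3948, 4584 and 5325 nucleotides long. Col9a3 had 37 and 117 footprints on Col9a3-001 and 47 and 118 on a further transcript, which share a coding length of 2043 nucleotides. Col26a1 had 61 and 113 footprints on Col26a1-001 and 53 and 111 on Col26a1-004. Col2a1 had 7 and 22 footprints on Col2a1-001 and 10 and 21 on Col2a1-002, with coding sequences of 4464 and 4260 nucleotides. Such transcripts share most of their sequence, so their counts depend on how shared fragments were placed.

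The log2 ratio between the libraries went with level. Over the 31 tested collagens, Spearman's rho of the log2 ratio was -0.53 with the level per kilobase and 0.27 with coding length. Over 13317 tested coding genes the same values were -0.26 and 0.16. These are correlations across genes of the same 2 libraries, and genes are not independent replicates. Level and log2 ratio came from the same counts, and the filter on the mean count gives the deeper replicate 2 more weight. How much of each rho comes from this was not tested.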
